A study of Mus musculus with 32 samples.

Results

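Liver-only peaks are stretches of open chromatin that were called in liver in all 3 of the study's liver comparisons and in none of its 3 brain comparisons. They were taken from the consensus peak list of the Phe21 liver comparison, on chromosomes 1 to 19, as peaks that share 1 base or more with a peak of both other liver lists and no base with a peak of any brain list. The intervals chr13:21000000-24000000 and chr5:120000000-130000000 were left out. The rule found 42683 peaks, of 105938 peaks of the list on these chromosomes outside these intervals and 108912 in the whole list. Of the 85105 peaks that all 3 liver lists shared, the other 42422 met a brain peak and are called open in both tissues below. Peak presence chose the members, so the contrast between liver and brain is a description and was not tested.

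Chromatin access was measured by ATAC-seq, which reads out the DNA that a transposase can reach, in nuclei of brain and liver from mice on a C57BL/6N background. By the labels the mice were male littermates of matched age, while the study's methods also state that its experiments used mice of several litters, matched for age and genotype. They were either wild type or homozygous for a CRISPR-Cas9 deletion of tRNA-Phe-GAA-1-1, 2-1 or 3-1, 3 of the genes for the phenylalanine tRNA. These groups are called Phe11, Phe21 and Phe31. No drug was given, the deletions are germline and present in every cell, and by the study's account of its animals its mice were 10 weeks old. Each library comes from whole tissue, so less access per nucleus and fewer nuclei of a cell type cannot be told apart. The liver comparisons were 4 Phe11 against 4 wild-type libraries, 3 Phe21 against 3 wild-type libraries and 3 libraries labelled Phe31 against 3 wild-type libraries. The Phe11 and Phe21 comparisons share wild-type replicates 1, 3 and 24, and the labelled Phe31 comparison has wild-type libraries of its own.

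The deleted locus was checked first, as normalised read counts at the tRNA locus with 50 nt on each side. In Phe11 liver, the 4 wild-type libraries had 22.0 ± 3.41 (SD) at tRNA-Phe-GAA-1-1, while the 4 Phe11 libraries had 3.19 ± 1.66 (SD), for which a two-sided exact permutation test gave its smallest possible p of 0.0286. In Phe21 liver, tRNA-Phe-GAA-2-1 had 1.19, 4.2 and 3.42 in the wild-type libraries and 0.602, 0 and 0 in the knockouts, which rests on 7 reads and 1 read (exact p = 0.1, the smallest that 3 and 3 libraries allow). The other loci also separated completely in Phe21, each with an exact permutation p of 0.1. At tRNA-Phe-GAA-3-1 the knockouts were lower, with 19.9, 9.43 and 20.9 against 28.6, 26.6 and 27.4 in wild type, and at tRNA-Phe-GAA-1-1 they were higher, with 34.9, 33.0 and 33.5 against 20.3, 23.8 and 29.6. The libraries labelled Phe31 went against their label. They kept tRNA-Phe-GAA-3-1, at 9.01, 9.62 and 10.6 beside 13.2, 15.6 and 9.91 in wild type, with p = 0.2 by the same exact test, and at tRNA-Phe-GAA-1-1 they had 2.25, 0 and 0 beside 10.7, 6.25 and 5.66 (exact p = 0.1). Their table is therefore called labelled Phe31 throughout. Wild-type liver replicates 1 and 22 differed by less than sampling noise (chi-square per degree of freedom 0.44 over 232 loci), as did replicates 3 and 24 to a lesser degree (0.744 over 241 loci), while the other 4 pairs lay between 1.01 and 1.15. The Phe11 wild-type means may thus hold fewer than 4 separate livers and the Phe21 means fewer than 3. With each such pair counted once, by its mean, which was chosen after seeing the data, the exact test at tRNA-Phe-GAA-1-1 had 2 wild-type values of 22.0 ± 3.22 (SD) against 4 Phe11 values and gave p = 0.133. With only replicates 1 and 22 counted once it gave p = 0.0571 by the exact test, and both are the smallest p that so few values allow. At tRNA-Phe-GAA-2-1 the Phe21 test then had 2 values against 3 and an exact p of 0.2, again the smallest possible. Over the 401 tRNA loci, the only place where the files give depth, the 17 liver libraries held 4719 to 23754 reads.

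Liver tissue is mostly made of hepatocytes, which make plasma proteins and bile acids, store and release glucose and clear nitrogen and foreign compounds. Open chromatin outside gene starts is often enhancer DNA, where transcription factors bind, and it differs between cell types far more than the DNA at gene starts does. In hepatocytes the best known factors are HNF4A, HNF1, FOXA and C/EBP proteins and the nuclear receptors that sense bile acids, lipids and steroids.

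The promoters of 6 hepatocyte genes that a liver-only peak covers are shown here to give the letters behind the motif counts further down. Each run is 300 bases, 250 before to 50 after the RefSeq start on GRCm38.p6, read along the gene's strand, and capitals mark matches to the HNF4A, HNF1, C/EBP and FOXA motifs and to the hexamers that single nuclear receptors (AGGTCA) and the glucocorticoid receptor (AGAACA) read. Alb encodes albumin and lies at chr5:90460620-90460919 on the plus strand. G6pc encodes glucose-6-phosphatase, the last step of glucose release, and its window is chr11:101367466-101367765 on the plus strand. Igfbp1 encodes a secreted binding protein for insulin-like growth factors, with its window at chr11:7197537-7197836 on the plus strand. Cyp3a25 and Cyp3a11 encode cytochromes that oxidise steroids and drugs, at chr5:146009569-146009868 and chr5:145879805-145880104, both on the minus strand. Cyp8b1 encodes the 12-alpha-hydroxylase of cholic acid synthesis and lies at chr9:121916256-121916555 on the minus strand.
Alb: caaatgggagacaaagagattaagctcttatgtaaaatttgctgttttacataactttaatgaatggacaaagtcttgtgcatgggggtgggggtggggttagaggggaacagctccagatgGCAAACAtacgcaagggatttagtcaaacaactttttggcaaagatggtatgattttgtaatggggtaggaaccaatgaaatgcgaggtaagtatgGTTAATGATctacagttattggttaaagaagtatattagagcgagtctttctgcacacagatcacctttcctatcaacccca
G6pc: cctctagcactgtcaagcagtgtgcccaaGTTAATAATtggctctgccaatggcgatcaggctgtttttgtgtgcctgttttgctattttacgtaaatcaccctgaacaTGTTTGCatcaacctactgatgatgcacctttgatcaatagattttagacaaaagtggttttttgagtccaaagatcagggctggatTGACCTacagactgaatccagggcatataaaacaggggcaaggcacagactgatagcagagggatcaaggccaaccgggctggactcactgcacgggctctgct
Igfbp1: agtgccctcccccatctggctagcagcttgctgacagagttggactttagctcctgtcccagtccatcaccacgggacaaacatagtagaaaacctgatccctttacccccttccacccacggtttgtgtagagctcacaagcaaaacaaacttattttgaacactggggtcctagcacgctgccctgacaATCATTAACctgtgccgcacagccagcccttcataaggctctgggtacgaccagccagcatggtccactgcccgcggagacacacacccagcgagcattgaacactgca
Cyp3a25: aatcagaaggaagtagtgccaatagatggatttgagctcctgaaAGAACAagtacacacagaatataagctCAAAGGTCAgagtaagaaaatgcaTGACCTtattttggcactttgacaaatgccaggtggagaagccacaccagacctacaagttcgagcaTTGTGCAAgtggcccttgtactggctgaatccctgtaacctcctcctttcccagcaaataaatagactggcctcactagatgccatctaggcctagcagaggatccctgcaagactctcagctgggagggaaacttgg
Cyp3a11: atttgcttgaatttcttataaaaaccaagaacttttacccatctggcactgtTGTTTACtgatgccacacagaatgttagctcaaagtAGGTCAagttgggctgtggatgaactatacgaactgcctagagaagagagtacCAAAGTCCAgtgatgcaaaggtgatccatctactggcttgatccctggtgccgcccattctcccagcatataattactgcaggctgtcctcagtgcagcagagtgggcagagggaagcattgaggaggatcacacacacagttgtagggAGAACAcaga
Cyp8b1: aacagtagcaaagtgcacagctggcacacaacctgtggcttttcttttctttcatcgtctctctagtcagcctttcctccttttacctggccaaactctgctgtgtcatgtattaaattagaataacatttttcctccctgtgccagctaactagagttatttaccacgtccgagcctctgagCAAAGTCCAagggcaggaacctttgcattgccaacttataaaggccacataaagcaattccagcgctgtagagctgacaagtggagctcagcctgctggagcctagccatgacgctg

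The Alb window has the HNF1 match GTTAATGAT beginning 32 bases before the start and a FOXA match 128 bases before it. The G6pc window has the HNF1 match GTTAATAAT at 221 bases, a FOXA match at 141 bases and a nuclear receptor hexamer at 54 bases before the start. Igfbp1 has an HNF1 match on the other strand at 59 bases. The HNF4A matches are CAAAGGTCA in Cyp3a25 at 179 bases, which contains a nuclear receptor hexamer, and CAAAGTCCA in Cyp3a11 at 109 bases and in Cyp8b1 at 67 bases. These are matches of letters, and binding was not measured. Every window printed here holds an HNF1 or an HNF4A match. Of the 686 promoter windows met by a liver-only peak and by no peak open in both tissues, 4.81% and 5.39% do, so the printed ones are not typical.

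Of 1128 RefSeq microRNA genes, 27 (2.39%) were met by a liver-only peak, and 125 (11.1%) by a peak open in both tissues. For 23 of the 27 the RefSeq table holds a mature sequence. The others met include Mir150 and Mir293, so the ones printed do not describe the set. A few, picked by hand because they are known from liver or its ducts and stellate cells, are printed here with the seed, bases 2 to 8, in capitals.
miR-148a-3p: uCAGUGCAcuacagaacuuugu
miR-21a-5p: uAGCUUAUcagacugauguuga
miR-200a-3p: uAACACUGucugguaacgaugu
miR-141-3p: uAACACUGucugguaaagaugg
miR-199a-3p: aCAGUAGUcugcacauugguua

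miR-200a-3p and miR-141-3p, both known from epithelia, share the seed AACACUG. The peaks at Mir148a (196 bases wide), Mir21a (252 bases), Mir200a (259 bases) and Mir141 (214 bases) were listed in no liver comparison. The peak at Mir199a-2 was listed in the labelled Phe31 comparison alone, at 4.9 in wild type and 5.57 in the libraries labelled Phe31 on the log2 concentration scale explained below. No liver-only peak met any of the 282 RefSeq tRNA genes, whereas peaks open in both tissues met 129 of them (45.7%), so none of these 282 is in a member.

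Liver-only peaks were narrow. Their median width was 362 bases, with the middle 50% between 281 and 509 bases and the widest at 11699 bases. Peaks open in both tissues had a median of 462 bases and a middle range of 289 to 865 bases. Only 3.65% of liver-only peaks were wider than 1000 bases, against 20.2% of peaks open in both tissues. Together the members cover 18.9 Mb. The 5 widest lay in or beside genes of hepatocyte metabolism and secretion. They were at G6pc (11699 bases, chr11:101368611-101380309), at Tat (11660 bases, chr8:109989934-110001593), which encodes the tyrosine aminotransferase of tyrosine breakdown, at the carboxylesterase gene Ces3a (9619 bases, chr8:105050756-105060374), at Ahsg (9044 bases, chr16:22893235-22902278), which encodes the plasma protein fetuin-A, and at Cyp3a25 (8395 bases, chr5:145982333-145990727).

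**Figure D1:**
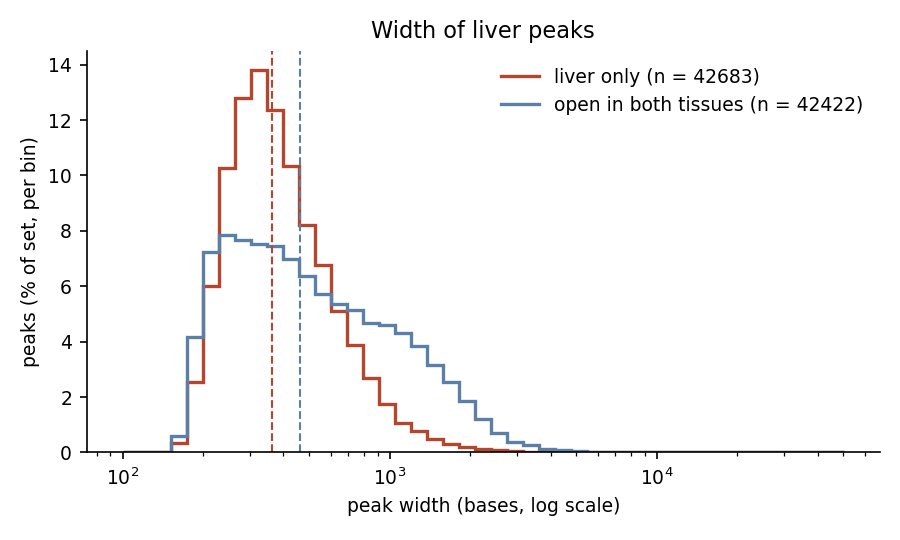
Distribution of peak width (bases, log scale) for liver-only peaks (red) and for liver peaks that are also open in brain (blue), as percent of each set per bin, with dashed lines at the medians of 362 and 462 bases. The red curve is a single hump, and the blue curve has a long right shoulder above 1000 bases.

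The members were spread over every autosome. Their density ran from 14.7 per Mb on chromosome 14 to 21.4 per Mb on chromosome 19, and between 42.7% (chromosome 11) and 55.4% (chromosome 3) of the shared liver peaks of a chromosome were liver-only. Of bins of 1 Mb, 2204 held a member, with a median of 16 each. The median gap to the next member was 12352 bases, and 45.9% lay within 10000 bases of the next, while 11.7% were over 100000 bases from it. The edge of the rule passes close to many peaks. Just inside it, 982 members (2.3%) had a brain peak within 100 bases and 28.9% within 1000 bases. Just outside it, 430 peaks open in both tissues (1.01%) shared under 50 bases with a brain peak, and 89.1% of that set met a peak in all 3 brain lists.

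Liver-only peaks stood away from gene starts. Within 1000 bases of a RefSeq start of a protein-coding gene lay 3.72% of them, against 24.3% of peaks open in both tissues, and within 200 bases the shares were 1.6% and 21.3%. The median distance to the nearest start was 32550 bases for liver-only peaks and 16020 bases for the others. Inside the extent of a protein-coding gene lay 58.6% of liver-only peaks and 69.7% of the others, and outside every RefSeq gene lay 32.2% and 22.8%. Starts were taken from 16234 protein-coding genes on 18 autosomes, since the promoter table holds no entry on chromosome 18, and exons were not told from introns because exon positions on this build were not used here.

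**Figure D2:**
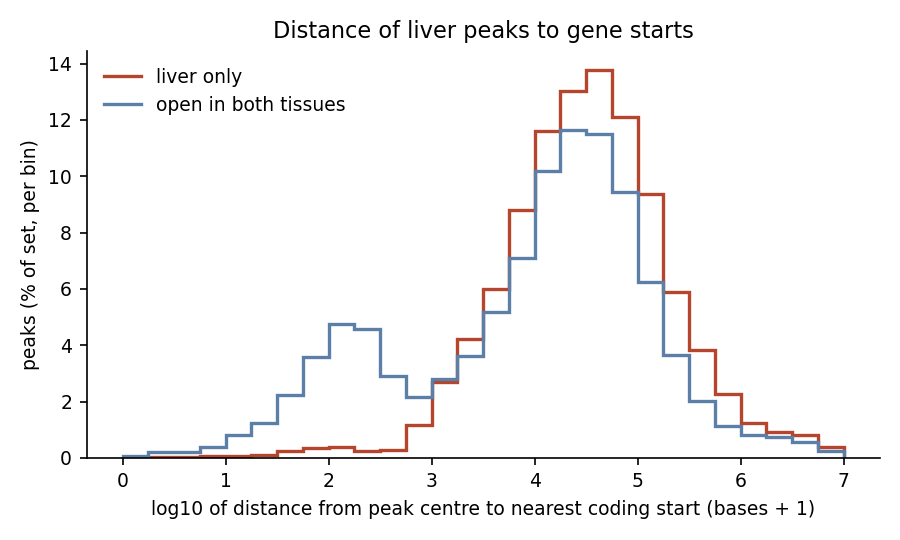
Distance from the peak centre to the nearest protein-coding start (log10 of bases plus 1) for liver-only peaks (red) and peaks open in both tissues (blue), as percent of each set per bin. The blue curve has a first hump near 2, close to starts, that is nearly missing from the red curve, and both have a hump at 4 to 5.

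The DNA at the starts that liver-only peaks did cover was poor in CpG. There were 686 RefSeq promoter windows met by a liver-only peak and by no peak open in both tissues, and 10726 met by a peak open in both. The median GC content was 50.3% in the first and 62.3% in the second, beside 57.0% over all 19817 windows. The median number of CpG pairs was 4 against 22, and the ratio of CpG found to CpG expected from base content was 0.237 against 0.788. It was under 0.6 in 89.8% of windows with a liver-only peak and in 22.8% of windows with a peak open in both.

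Motifs of HNF4A, HNF1 and FOXA and the nuclear receptor hexamer were more frequent in these windows than in those with a peak open in both tissues or with neither. The letters were searched on both strands. The HNF4A motif (CAAAGTCCA or CAAAGGTCA, the latter of which contains the hexamer AGGTCA) was in 37 of 686 windows (5.39%, 95% Wilson interval 3.94% to 7.35%), against 0.634% of windows with a peak open in both tissues, 0.869% with neither and 0.898% of all windows. The HNF1 motif (GTTAATNAT) was in 4.81% (3.45% to 6.68%), against 0.308%, 0.869% and 0.701%. The FOXA motif (TGTTTAC or TGTTTGC) was in 13.8% (11.5% to 16.6%), against 5.45%, 9.4% and 7.42%. The C/EBP motif (TTGCGCAA or TTGCACAA) was in 2.04% (1.22% to 3.4%), against 0.914%, 1.5% and 1.2%, so that the share with neither lies inside its interval. The nuclear receptor hexamer AGGTCA was in 185 of 686 (27%), against 11.4%, 18% and 14.7%. Since base content differs between these sets, windows with a CpG ratio under 0.6 were also compared among themselves. There the HNF4A motif was in 6.01% of windows with a liver-only peak, 1.31% with a peak open in both and 0.976% with neither, and the HNF1 motif in 5.19%, 1.07% and 0.99%. The C/EBP motif was closer between these sets, at 2.11%, 1.02% and 1.61%, and so was the glucocorticoid receptor hexamer AGAACA, at 26.5%, 16.3% and 24.7%.

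Motifs of broadly used promoters were less frequent in these windows than in those with a peak open in both tissues. The ETS motif (CCGGAAGT) was in 1.17% of the 686 windows, 8.78% of those with a peak open in both, 1.13% of those with neither and 5.27% of all. The NRF1 motif (GCGCATGCG) was in 0 of the 686 (Wilson upper limit 0.557%, or 0.437% by the limit of 3 counts), against 3.86%, 0.571% and 2.33%. The E-box CACGTG was in 5.25%, against 10.7%, 4.65% and 7.92%. For the ETS motif and the E-box, the windows with a liver-only peak thus lay close to those with no peak. Among windows with a CpG ratio under 0.6 the ETS motif was in 0.487% with a liver-only peak, 4.30% with a peak open in both and 0.693% with neither, and the E-box in 4.71%, 7.58% and 3.45%. Motifs of neural factors lay between the shares of the other sets. The SOX motif ACAATGG was in 3.64%, against 1.66% with a peak open in both, 4.43% with neither and 2.90% of all, the neurogenic bHLH motif CAGATGG in 5.39%, against 3.10%, 5.72% and 4.29%, and the MEF2 motif CTATTTATA in 0.437%, against 0.289%, 0.666% and 0.454%. The AP-1 motif TGANTCA was in 12.0% (9.74% to 14.6%), against 4.34%, 10.1% with neither and 7.06% of all, and the D-box of clock factors TTATGTAA in 1.6% (0.898% to 2.85%), against 0.410%, 1.42% and 0.878%, so that both shares with no peak lie inside the intervals. The CTCF core AGGTGGCAG was in 0.875%, against 0.783%, 0.809% and 0.797%.

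Genes with liver-only peaks were checked against lists of cell type markers. Of all 20395 protein-coding genes, 40.4% had a liver-only peak in the gene or within 1000 bases of it, and 8.34% of the 16234 with a start had one within 1000 bases of that start. Of hepatocyte markers, 7 of 9 had one at the start (Alb, Cyp2e1, G6pc, Hnf4a, Serpina1a, Slc10a1 and Tat). Apoa1 and Pck1 were the others, and both had a peak open in both tissues there. Kupffer cell markers followed with 3 of 5 (Marco, Cd5l and Clec4f), liver endothelium with 3 of 5 (Tek, Kdr and Clec4g) and lymphocytes and neutrophils with 3 of 6 (Ptprc, S100a8 and Cd79a). No start of the 7 stellate cell markers, the 4 cholangiocyte markers or the 7 neuronal markers with a start had one, and among 7 glial markers Slc1a2, a glutamate transporter, had one. The rule itself kept peaks called in liver and left out those that meet a brain peak. These counts therefore describe the set and do not test which cell types it comes from.

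Gene groups of hepatocyte function were dense in liver-only peaks. Of 25 genes of xenobiotic metabolism with a start, 20 had one there, as did 9 of 12 for bile acids, 18 of 27 for plasma proteins and 12 of 18 for hepatocyte transcription factors. Lower shares were found for glucose and glycogen (8 of 17), the urea cycle and amino acid breakdown (6 of 13) and lipids and cholesterol (9 of 23). Among clock genes only Clock itself had one, of 18, and all 18 had a peak open in both tissues, as 58.2% of all genes did. Stress and protein folding genes had 5 of 28. Counted over the whole gene, Cps1, the first enzyme of the urea cycle, held 44 liver-only peaks over 109 kb (40.4 per 100 kb) and Apob, the protein of very low density lipoprotein, 19 over 39.2 kb (48.5 per 100 kb). The nuclear receptor gene Nr5a2 held 24 over 118 kb (20.4 per 100 kb), and the nuclear receptor gene Rora, with 38, is 735 kb long (5.17 per 100 kb).

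**Figure D3:**
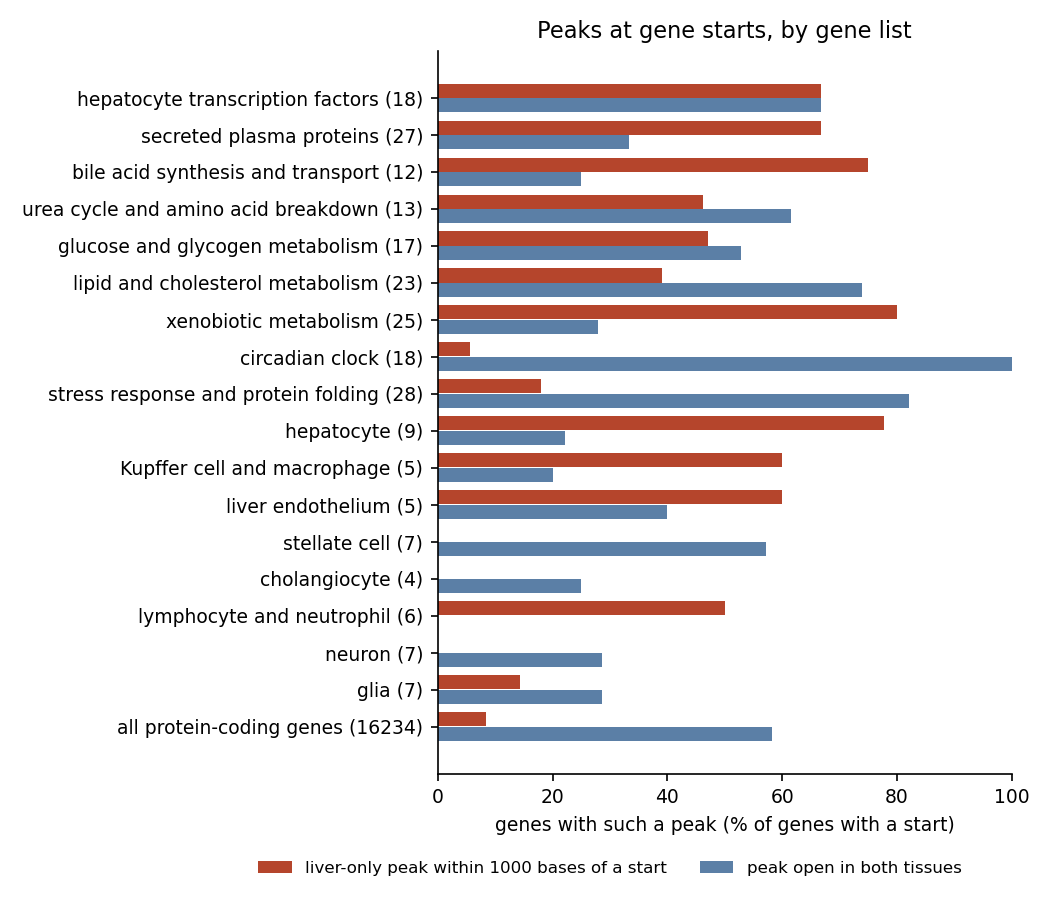
Percent of the genes of each list that had a liver-only peak (red) or a peak open in both tissues (blue) within 1000 bases of a RefSeq start, with the number of genes with a start in brackets. Xenobiotic, bile acid and hepatocyte marker genes reach 75% to 80% in red, beside 8.34% over all protein-coding genes, and the clock list is at 100% in blue.

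The comparison tables then gave which liver-only peaks differed between knockout and wild type in liver. The authors listed the peaks with a false discovery rate of at most 0.05 and gave for each a concentration, the log2 of the mean normalised read count of a group, so values here are group means on the log2 scale with no value per library, no SD and no n. A member was counted as listed when a listed peak of that comparison overlapped it. In the Phe11 comparison 2592 members (6.07%) were listed, beside 4.16% of all its peaks and 3.46% of peaks open in both tissues. In Phe21 it was 6684 (15.7%), beside 14.4% of all peaks and 15.0% of peaks open in both. In labelled Phe31 it was 7675 (18%), beside 19% of all peaks and 23.0% of peaks open in both. The Phe21 and labelled Phe31 shares lay close to the share over all peaks. In none of the tables were 30097 members (70.5%) listed. The value of a member is that of the listed peak, and its extent differs between the lists. The listed peak was over 2 times as wide as the member for 508 of the Phe11 members (19.6%), for 359 of the labelled Phe31 ones (4.68%) and for 0 in Phe21, whose list is the base, and in other cases it was narrower. Levels of a member in different tables can therefore cover different DNA, and only wild type and knockout of the same table are compared. Listed peaks of the Phe11 and labelled Phe31 lists can be wide enough to cover several members, and the 2592 members stand for 2410 separate Phe11 peaks and the 7675 for 7545.

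Listed liver-only peaks were of medium signal. Their median concentration was 5.92 in Phe11, 6.27 in Phe21 and 6.11 in labelled Phe31, against 7.31, 6.59 and 7.22 for listed peaks open in both tissues. The middle 50% in Phe21 ran from 5.26 to 7.14. The share that differed by at least 1 on the log2 scale was 35.5% in Phe11, 26.4% in Phe21 and 28.4% in labelled Phe31, and among peaks open in both it was 14.9%, 26.5% and 9.14%. Listed members were wider than the rest, with medians of 445, 484 and 517 bases against 358, 344 and 340.

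The direction of listed members differed between the tables. In Phe21 the knockout was higher at 4611 and lower at 2073, so that 69.0% were higher, against 46.7% of listed peaks open in both tissues and 50.8% of all listed peaks. In labelled Phe31 the libraries labelled Phe31 were higher at 1674 and lower at 6001, or 21.8% higher, against 41.2% and 36.2%. In Phe11 1501 were higher and 1091 lower, or 57.9% higher, against 49.2% and 47.2%. The Phe11 share fell to 50.0% when the labelled Phe31 list was not required for membership. Over all peaks of each list, higher and lower peaks made up 1.96% and 2.2% in Phe11, 7.32% and 7.1% in Phe21, and 6.87% and 12.1% in labelled Phe31. The median difference, knockout minus wild type, of listed members was 0.57 in Phe11, 0.55 in Phe21 and -0.65 in labelled Phe31, beside -0.33, 0.27 and -0.40 over all listed peaks. Depth moved with these directions. Phe21 knockouts held 11278 to 18575 reads over the tRNA loci and their wild types 7895 to 9739, Phe11 knockouts 9364 to 23754 and wild types 6186 to 9739, and the libraries labelled Phe31 4719 to 5576 and their wild types 7943 to 9329. The part of depth in the directions was not tested.

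Both listing and direction moved with the width of the peak. The members were divided by width into 4 classes of nearly equal size. From the narrowest class (142 to 281 bases) to the widest (510 to 11699 bases), the share listed rose from 3.06% to 9.82% in Phe11, from 4.21% to 28.7% in Phe21 and from 6.04% to 37.1% in labelled Phe31. Over the same classes the share with the knockout higher went from 80.2% to 50.5% in Phe11, from 28.1% to 74.7% in Phe21 and from 54.2% to 16.5% in labelled Phe31. Within each width class, liver-only peaks of Phe21 had a larger share with the knockout higher than peaks open in both tissues (28.1% against 16.8% in the narrowest, 73.5% against 37.1% in the class of 363 to 509 bases), and in labelled Phe31 a smaller one (54.2% against 95.6%, and 17.9% against 65.1%). The listed members of each table were divided likewise by concentration, and direction moved with it in Phe21 and labelled Phe31 but hardly in Phe11. Among the class with the highest concentration, 91.3% were higher in the Phe21 knockout, 7.31% in the libraries labelled Phe31 and 59.0% in Phe11, and in the class with the lowest it was 29.4%, 47.7% and 58.6%. Members within 1000 bases of a start did not stand far from the rest in Phe21 (72.1% higher, against 68.5%) or labelled Phe31 (20.3% against 21.7%), and in Phe11 72.6% of their 84 listed members were higher, against 57.7%.

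**Figure D4:**
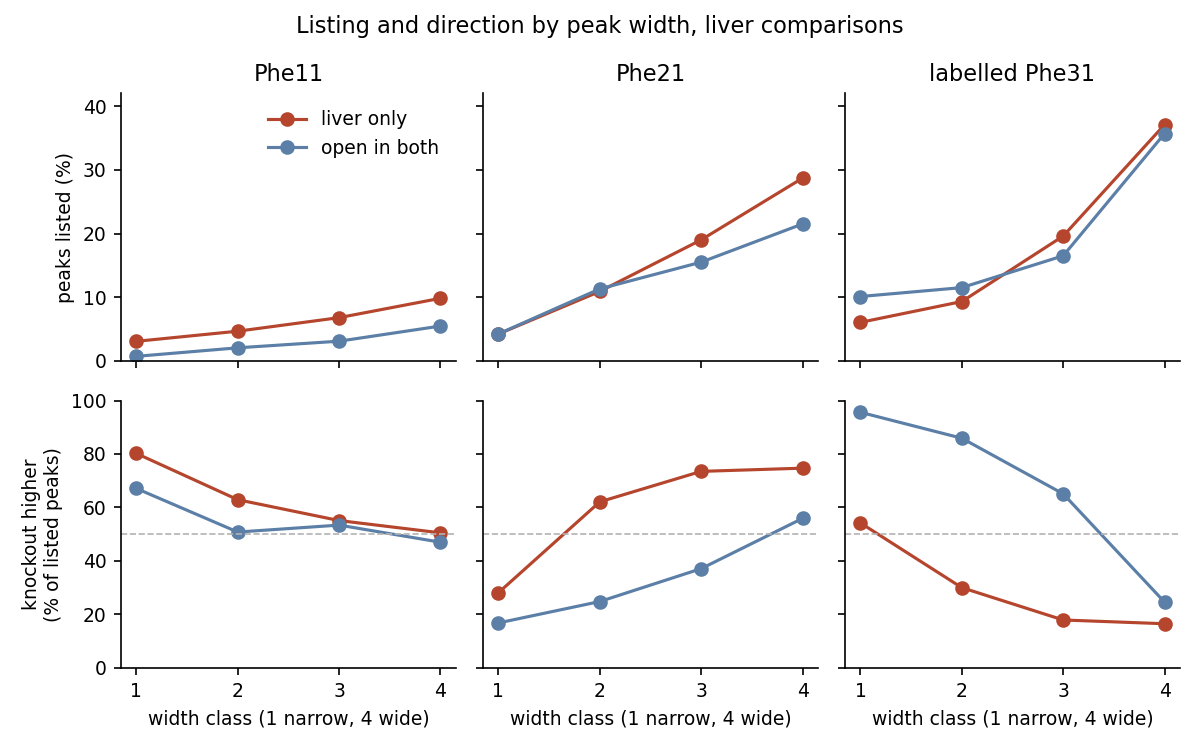
Percent of peaks listed (top row) and percent of listed peaks with the knockout higher (bottom row) by class of liver-only peak width, for the Phe11, Phe21 and labelled Phe31 comparisons, with liver-only peaks in red and peaks open in both tissues in blue. In the bottom row the red points lie above the blue ones in Phe21 and below them in labelled Phe31 in all 4 classes.

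The Phe21 and labelled Phe31 comparisons share no library, so their lists were set side by side. Of all shared liver peaks 4850 were listed in both, which is 37.2% of the Phe21 listed ones and 27.8% of the labelled Phe31 ones. For peaks open in both tissues the shares were 34.8% and 22.6%. Listed in both were 2644 members, which is 39.6% of the Phe21 listed members and 34.4% of the labelled Phe31 ones. At 2191 of these the Phe21 knockout was higher and the libraries labelled Phe31 lower, at 280 it was the other way, at 44 both were higher and at 129 both were lower, so that 93.5% were opposite. Of these 2644 members 84.5% were higher in Phe21 and 12.3% in labelled Phe31, and these shares alone, with unrelated directions, would make 76.1% opposite. Among peaks open in both tissues 83.4% of 2206 were opposite (57.1% from their shares), and among all shared liver peaks 88.9% (66.1%). Between Phe11 and labelled Phe31, which also share no library, 1216 members were listed in both (46.9% of the Phe11 and 15.8% of the labelled Phe31 ones), and 89.6% were opposite (69.8% from their shares), with 930 higher in Phe11 and lower in labelled Phe31. Among peaks open in both tissues 694 were listed in both (47.3% of the Phe11 and 7.11% of the labelled Phe31 ones), and 67.6% of them were opposite (53.0% from their shares). All libraries of the labelled Phe31 comparison are of batch 3, and each of batches 1 and 2 holds 2 wild-type and 2 knockout libraries of the Phe11 comparison. The Phe21 knockouts are of batch 1, as are wild-type replicates 1 and 3, while replicate 24 is of batch 2. Between labelled Phe31 and the other comparisons, batch and group cannot be told apart. The libraries labelled Phe31 were low at tRNA-Phe-GAA-1-1, as Phe11 was, and kept tRNA-Phe-GAA-3-1, so the gene deleted in them is uncertain. The part of the deleted gene in the opposite directions was not tested. The part of depth was not tested.

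Single peaks were then named by width, level and size of difference. At the wide Tat peak the concentration was 11.93 in wild type and 10.51 in the Phe21 knockout, a difference of -1.42, and 10.3 and 12.03 in the labelled Phe31 comparison, a difference of 1.73. The peak 1954 bases from Pck1, the gene of the first committed step of gluconeogenesis (chr2:173161228-173162794), had 6.87 and 5.53 in Phe21 and 10.31 and 12.58 in labelled Phe31, where the listed peak is 9805 bases wide against 1567. At the wide G6pc peak the libraries labelled Phe31 were at 11.38 and their wild types at 8.89, and it was not listed in the other tables. Both these gluconeogenic peaks were lower in wild type than in the libraries labelled Phe31. The largest positive difference of that table, 4.45, was 516 bases from Etnppl, which encodes a phospho-lyase that breaks down phosphoethanolamine (chr3:130636266-130636633). It went from 3.6 to 8.05 there, and was at 4.2 in wild type and 2.53 in the knockout of the Phe21 comparison. A neighbouring member shares the same listed peak of that table.

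The gene lists that follow are to be read beside all members, of which 6.07%, 15.7% and 18% were listed in Phe11, Phe21 and labelled Phe31, and beside the listed ones, of which 57.9%, 69.0% and 21.8% were higher. Width matters too, since of members of 510 bases or wider 9.82%, 28.7% and 37.1% were listed. The median width was 362 bases over all members, but 550, 524 and 514 bases for glucose, xenobiotic and lipid genes and 776 for hepatocyte markers. Over the list of urea cycle and amino acid breakdown genes, 45 of 120 members (37.5%) were listed in Phe21, with 3 higher and 42 lower and a median difference of -1.07. In labelled Phe31 81 (67.5%) were listed, 68 higher and 13 lower, with a median of 1.06. In Phe11 35 (29.2%) were listed, 23 higher and 12 lower, with a median of 0.64. Cps1 held 20 of the Phe11 members, all higher and in 14 separate listed peaks, 19 of the Phe21 members, all lower, and 29 of the labelled Phe31 ones, 22 higher and 7 lower. Without Cps1 the counts were 3 higher and 12 lower in Phe11 (median -0.78), 3 and 23 in Phe21 (-0.97) and 46 and 6 in labelled Phe31 (1.10), so the Phe11 majority turned. The other genes included Hal, the histidine ammonia-lyase, with 4 members lower and none higher in each of Phe11 and Phe21. The Hal peak listed in every table (chr10:93517162-93520128) had 9.58 and 9.30 in Phe11, 9.41 and 9.10 in Phe21, and 9.19 and 9.84 in labelled Phe31. The wide peak of Ass1, the synthetase that makes argininosuccinate, had 9.27 and 7.66 in Phe21 and 6.49 and 7.75 in labelled Phe31. At Agxt, the alanine-glyoxylate aminotransferase, the libraries labelled Phe31 were at 10.24 and wild type at 8.16 in a listed peak of 6542 bases, against 1049 in the member. Members of this list were wide, with a median of 751 bases.

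Of 112 members at glucose and glycogen genes, 18 (16.1%) were listed in Phe21, 12 higher and 6 lower, so that both listing and direction lay near the 15.7% and 69.0% of all members. In labelled Phe31 39 (34.8%, beside 18%) were listed, 25 higher and 14 lower, of which Fbp1, the fructose bisphosphatase of gluconeogenesis, held 14, all higher. Without Fbp1 the labelled Phe31 counts were 11 higher and 14 lower, so that majority turned. In Phe11 there were 3 (2.68%), all higher. A member near Igfbp1 (chr11:7201284-7204633) had 8.44 and 7.42 in Phe21 and 8.51 and 10.5 in labelled Phe31.

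Bile acid genes had 79 members, with a median width of 544 bases. Listed in Phe21 were 19 of them (24.1%), beside 15.7% of all members and 28.7% of members of 510 bases or wider. Of the 19 listed, 18 were higher and 1 lower, with a median difference of 0.46, where 69.0% of all listed members were higher. In labelled Phe31 25 (31.6%) were listed, 8 higher and 17 lower, with a median of -0.66, and in Phe11 2 were listed, both lower. The peak that overlaps both Abcg5 and Abcg8, which encode the paired subunits of the sterol exporter and are read from opposite strands (chr17:84682362-84683801), had 8.88 and 9.15 in Phe21 and 8.73 and 8.07 in labelled Phe31. At Cyp27a1, which oxidises the sterol side chain, a member had 8.21 and 8.54, and 7.33 and 6.41. The member 284 bases from Nr0b2, the receptor SHP that represses bile acid synthesis (chr4:133556970-133558164), was listed in every table, with 9.78 and 9.49 in Phe11, 9.76 and 10.02 in Phe21 and 9.22 and 8.42 in labelled Phe31.

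Among hepatocyte transcription factor genes, 39 of 55 listed members were higher in Phe21 (median difference 0.59), 26 of 59 in labelled Phe31 (-0.43) and 14 of 16 in Phe11 (1.04, in 12 separate listed peaks). Of its 157 members 35.0%, 37.6% and 10.2% were listed in these tables, beside 15.7%, 18% and 6.07% of all members, and the Phe21 direction lay near the 69.0% of all listed members. The median width of its members was 585 bases, and of all members of 510 bases or wider 28.7%, 37.1% and 9.82% were listed. The genes were unlike one another. At Rxra, the shared partner of nuclear receptors, 11 members were listed in Phe21, all lower, and 8 in labelled Phe31, all higher. Without Rxra 39 of 44 were higher in Phe21 and 18 of 51 in labelled Phe31. Ppara, the fatty acid receptor gene, had 8 listed in Phe21, all higher, and Nr1h4, the bile acid receptor gene, had 6, all higher. The Foxa2 peak over the gene's start (chr2:148044778-148047287) was listed in every table, at 8.94 and 9.37 in Phe11, 8.82 and 9.31 in Phe21 and 9.77 and 9.21 in labelled Phe31. At Onecut1 (chr9:74865925-74867372) the values were 8.82 and 10.18, 7.53 and 8.30, and 9.90 and 8.54, with listed peaks of 8047, 1448 and 5178 bases.

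Plasma protein genes held some of the largest differences. The member in Serpina3k, a serine protease inhibitor gene (chr12:104345035-104348312), had the largest negative difference of the labelled Phe31 table, -4.85, from 11.66 to 6.81, and in Phe11 it lay in a listed peak at 8.98 in wild type and 12.09 in the knockout, which also covers 3 narrower members. Another 4 members, which lie 10256 to 16008 bases from Serpina5, share 1 listed peak in each of these tables, at 7.93 and 11.41 in Phe11 (difference 3.48) and 11.24 and 7.52 in labelled Phe31 (-3.72). None of these members was listed in Phe21. At the complement gene C3, the member over the start (chr17:57227554-57228729) had 8.05 and 8.78 in Phe21 and 8.39 and 7.56 in labelled Phe31, and in Phe11 all 10 C3 members lie in 1 listed peak at 10.55 and 11.64. Another C3 member, 857 bases past the gene (chr17:57201590-57203110), went the other way in Phe21, from 7.72 to 6.92. Over the list, 19 of 25 listed members were higher in Phe11 (6 of 12 when each listed peak is counted once), 13 of 42 in Phe21 and 13 of 63 in labelled Phe31, and the medians were 1.09, -0.72 and -0.75. Of its 150 members 16.7%, 28% and 42% were listed, beside 6.07%, 15.7% and 18% of all members. The median width of its members was 741 bases, and of all members of 510 bases or wider 9.82%, 28.7% and 37.1% were listed. The direction in labelled Phe31 was that of all listed members, of which 21.8% were higher, while in Phe21 it was 69.0% and in Phe11 57.9%. Without C3 9 of 15 were higher in Phe11. Apob gave 9 of the members lower in Phe21, and without it 13 of 33 were higher. The wide Ahsg peak was at 10.96 and 11.34 in Phe11 and at 11.41 and 11.69 in labelled Phe31.

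Genes of xenobiotic metabolism had 19 of 23 listed members higher in Phe21, 9 of 21 in Phe11 and 15 of 34 in labelled Phe31, with medians of 0.62, -1.22 and -0.53. Of its 103 members 22.3%, 20.4% and 33.0% were listed, beside 15.7%, 6.07% and 18% of all members, and 69.0%, 57.9% and 21.8% of all listed members were higher. Cyp3a25 held 8 members in 5 listed peaks of Phe11, all lower, 1 lower in Phe21 and 7 higher in labelled Phe31. Without it 19 of 22 were higher in Phe21, 9 of 13 in Phe11 (median 0.58), so that the Phe11 majority turned, and 8 of 27 in labelled Phe31. Its member at chr5:145974532-145977900 had 9.81 and 8.85 in Phe21 and 5.57 and 9.69 in labelled Phe31, and in Phe11 it lay in a wider listed peak, at 10.28 and 7.09, that also covers other members. Near Cyp3a11 a member had 6.62 and 3.78 in Phe11 and 2.08 and 5.96 in labelled Phe31. The largest negative difference of Phe11, -3.39, was in Mup11, a major urinary protein gene (chr4:60657487-60658728), which went from 8.45 to 5.06, from 8.05 to 6.06 in Phe21 and from 1.58 to 4.33 in labelled Phe31, where the listed peak has 242 bases against 1242. The Serpina, Cyp3a and Mup genes belong to families with similar copies, so these values are uncertain, and how reads were shared between copies was not tested. At Alas1, the first enzyme of heme synthesis, a member was at 10.02 in wild type and 11.32 in Phe11, and at 6.05 and 5.34 in Phe21. The Phe11 value is that of a peak of 14015 bases over 2 members, while the member has 1132 bases. At Por, the reductase that feeds electrons to cytochromes, a member was at 8.85 and 9.15 in Phe11, in a listed peak of 2858 bases against its own 632, and at 6.12 and 6.69 in Phe21.

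Lipid genes had 154 members, of which 23.4% were listed in Phe21, 32.5% in labelled Phe31 and 6.49% in Phe11. The knockout was higher at 28 of 36 listed members in Phe21, 30 of 50 in labelled Phe31 and 6 of 10 in Phe11, beside 69.0%, 21.8% and 57.9% of all listed members. Elovl5, a fatty acid elongase gene, gave 11 of the labelled Phe31 members, all higher, and 4 in Phe21, also all higher. Without Elovl5 24 of 32 were higher in Phe21 and 19 of 39 in labelled Phe31. The wide Fabp1 peak, at the gene of the liver fatty acid binding protein (chr6:71202797-71207468), had 9.12 and 9.80 in Phe21 and 10.06 and 9.84 in labelled Phe31. Clock genes had 86 members, of which 25.6% were listed in Phe21, 17.4% in labelled Phe31 and 8.14% in Phe11. Of the 22 in Phe21, 18 were higher, 11 of them in Rora, and of 15 in labelled Phe31 14 were lower, while Phe11 had 5 higher and 2 lower. Without Rora 7 of 9 were higher in Phe21 and 7 of 8 lower in labelled Phe31. Stress and protein folding genes had 3, 2 and 3 listed of 23 members in Phe11, Phe21 and labelled Phe31. The hepatocyte marker list had 78 members, of which 25.6%, 37.2% and 52.6% were listed in Phe11, Phe21 and labelled Phe31. It had 20 of 20 higher in Phe11, all of them in Cps1 and in 14 separate listed peaks, 5 of 29 in Phe21 and 30 of 41 in labelled Phe31. Without Cps1 it had none listed of 34 members in Phe11, 5 higher of 10 listed in Phe21 and 8 of 12 in labelled Phe31. Of 46 members at endothelium markers 2 of 2, 4 of 5 and 1 of 8 listed were higher, so that 4.35%, 10.9% and 17.4% were listed. Of 5 at Kupffer cell markers 0 of 2 were higher in Phe21 and 1 of 1 in labelled Phe31, of 4 at those of lymphocytes and neutrophils 1 of 1 in labelled Phe31 (S100a8, 4.06 and 5.40), and none of the 5 stellate cell members and 1 cholangiocyte member was listed in any table. Of 18 members at neuronal markers 1 of 4, 2 of 4 and 0 of 3 listed were higher in Phe11, Phe21 and labelled Phe31, and of 17 at glial markers 1 of 2 in Phe21 and 0 of 2 in labelled Phe31. The part of the makeup of the tissue in the values above was not tested.

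The largest positive differences of Phe11 and Phe21 included weak peaks far from genes. In both Phe11 and Phe21 the largest positive difference was at a member 76863 bases from S1pr1, a receptor of sphingosine phosphate (chr3:115791918-115792136), which went from 1.27 to 4.93 in Phe11 and from 1.47 to 4.83 in Phe21, and from 5.26 to 3.93 in labelled Phe31. The Phe11 and Phe21 values share wild-type libraries. The largest negative difference in Phe21, -3.37, was 103510 bases from Utrn (chr10:12278428-12278677), from 5.34 to 1.97, and among the others a member inside Cth, the gene of an enzyme that makes cysteine (chr3:157921196-157921744), went from 4.89 to 1.97, and from 4.75 to 6.75 in labelled Phe31. The others chosen by size in Phe21 lay near Tal2 (3.63 to 5.66), Lonrf1 (1.65 to 3.59), Pfkfb3 (2.64 to 4.55), Fbxl17 (2.38 to 4.28), Tent5a (5.09 to 2.10), Ets2 (5.50 to 2.75) and Ap2a2 (6.19 to 3.50), and in Phe11 near Oma1 (3.33 to 0.47).

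The strongest listed members beyond those above lay in genes of several roles. In Phe11 the highest concentration, 11.63, was in Necab2 (12.01 and 11.10), where the listed peak of 14877 bases is far wider than the member of 503 bases. In Phe21 Agpat2, an enzyme of phospholipid and triglyceride synthesis, was at 9.95 and 10.28, and at 8.28 and 7.56 in labelled Phe31. Rbp4, the plasma carrier of retinol, was at 9.71 and 10.01 in Phe21, and went the other way in Phe11, at 8.77 and 8.33, and the same way in labelled Phe31, at 4.66 and 5.38, with listed peaks of 7126, 3215 and 396 bases in Phe21, Phe11 and labelled Phe31. Tns1 was at 9.64 and 9.89 in Phe21 and at 9.74 and 9.10 in labelled Phe31. In labelled Phe31 the lipoprotein receptor gene Lsr was at 10.76 and 10.93, in 2 members that share 1 listed peak. Of the members listed in every table with the highest mean, those in Igfals (9.12 and 9.64 in Phe11, 9.01 and 9.60 in Phe21, 9.43 and 8.40 in labelled Phe31), Lifr (8.69 and 9.79, 8.45 and 9.14, 9.06 and 7.97) and Dock6 (9.17 and 9.46, 9.14 and 9.49, 9.45 and 8.96) were higher in the knockouts of Phe11 and Phe21, which share wild-type libraries, and lower in the libraries labelled Phe31, as those at Foxa2 and Onecut1 were.

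**Figure D5:**
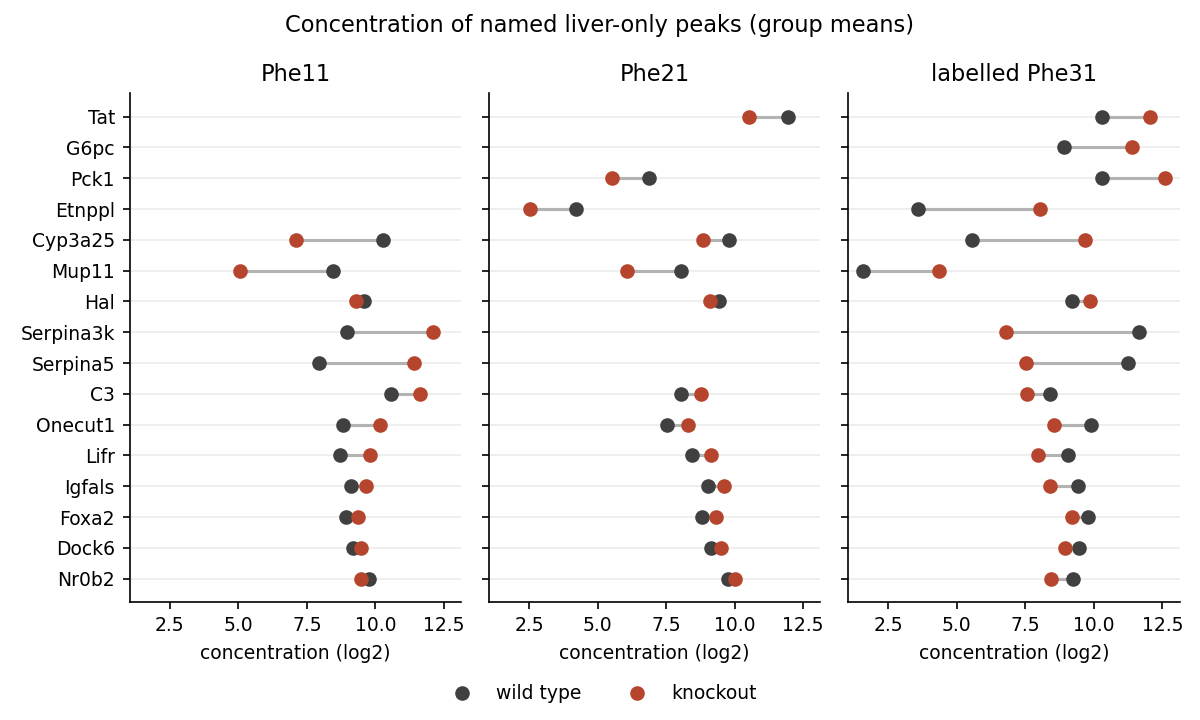
The authors' mean concentration (log2) of wild type (dark) and knockout (red) at 16 named liver-only peaks in the Phe11, Phe21 and labelled Phe31 comparisons, where a missing pair was not listed and the value is that of the overlapping listed peak. From Tat to Hal the knockout lies lower in the first 2 panels and higher in the last wherever a pair is shown, and from Serpina3k to Dock6 it lies higher in the first 2 panels and lower in the last. Nr0b2 was lower in Phe11. The 16 were picked by hand from the named peaks, with a single peak for each gene, and set in order by direction. The pattern thus comes with the choice, and named peaks with other directions, as at Ahsg and Rbp4, are not shown.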

How the data were processed

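ATAC-seq nuclei of liver and brain gave 32 libraries in 3 batches. Per the labels and the study's methods, the authors trimmed reads (Trim Galore 0.6.4) and aligned them to GRCm38.p6 (Bowtie2 2.4.1). The aligner reported up to 20 alignments per read pair. They then removed duplicates (Picard 2.23.8) and kept only primary alignments of proper pairs at mapping quality 30, in fragments up to 175 nt. Peaks were called on pooled groups (Genrich 0.6), and groups were compared with DiffBind 3.0.8. The versions come from the submitters' processing notes. The deposited consensus lists carry a score in column 5, which in the labelled Phe31 list holds the width. The deposited comparison tables give the peaks at a false discovery rate of at most 0.05, with the authors' mean concentration on the log2 scale over a comparison and in each group. The knockout column of the Phe21 table is headed Phe11 and was read as the knockout. Their fold, p and false discovery rate columns hold the authors' comparisons and were not used. The authors' tables of normalised signal at tRNA loci (featureCounts 2.0.0, DESeq2 1.30.0 size factors) gave whole read counts for 100% of values within a tolerance of 0.02 and served for the label check and for depth. No column of values was left unmapped (0).

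Peaks were overlapped by 1 base or more, in Python 3.11.15 with pandas 2.3.3, NumPy 2.4.6, SciPy 1.17.1 and matplotlib 3.10.9, and the overlap code was tested on simulated data. A gene was assigned a peak in it or within 1000 bases. The 95% Wilson intervals beside motif shares cover counting error only. Since no genome of this build was used, sequences are RefSeq promoter windows (GRCm38.p6) and not windows at peak centres. RefSeq mature sequences give the microRNAs. The limma fit planned for tRNA loci was not made, because no RefSeq tRNA gene lies in a liver-only peak. Replicate livers are separate libraries per the labels, and peak values have no replicate error.

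Members and gene lists were chosen with earlier results of these data known. Named peaks are the 5 largest differences each way and the 5 highest concentrations of each table, up to 10 listed in every table by concentration, the 5 widest, and up to 4 examples a gene list. The 6 promoters and 5 microRNAs were chosen by hand, for the liver genes they belong to, after the peaks were seen. Each of these promoters holds an HNF1 or HNF4A match, so they are not a sample of all such windows. Alternatives were the base list, the overlap, the distance to brain peaks, the score, the width, the labelled Phe31 list, the distance to a start and, chosen after seeing the data, promoter windows of 200 bases, counting each listed peak once, counting close wild-type libraries once, and leaving out of a gene list the gene with the most listed peaks.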

Additional observations from a re-analysis of the deposited data

Results flagged for a closer look

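Groups of 4 or more libraries were examined for depth and for the count at tRNA-Phe-GAA-1-1, which left only wild type and knockout of the Phe11 liver comparison. Among these 4 sets of values, 1 library stood apart, in depth. Phe11 liver replicate 21 held 23754 reads over the tRNA loci, and its gap to the nearest library of its group was 0.874 of the whole range of the group, above the critical value of 0.829 for 4 samples in Dixon's test. Chance alone flags about 5% of groups. The peak tables hold group means only, so values at liver-only peaks without this library could not be computed.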

How the results depend on the processing

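The peak tables give no value per library, so the share of each result that rests on 1 library is unknown, and depth is known over tRNA loci only. No paired analysis was possible because the peak tables hold group means and no column per library. The planned tRNA fits, with their alternatives, and motif windows over whole peaks were not run.

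With only the peaks above the median score there were 26169 members. The shares listed were then 7.08%, 21.5% and 23.5% in Phe11, Phe21 and labelled Phe31, and the shares with the knockout higher 52.0%, 80.6% and 11.5%. When the labelled Phe31 list was not required, 5.71%, 14.4% and 13.7% were listed and 50.0% and 58.5% were higher in Phe11 and Phe21. With the Phe11 list as base, 5.6% were listed in Phe11 and 17.6% in labelled Phe31, and 55.8% and 20.7% of these were higher. With the labelled Phe31 list as base, 16.6% were listed in Phe21 and 54.5% of those listed in Phe11 were higher. With no brain peak within 1000 bases, 70.3% were higher in Phe21 and 20.2% in labelled Phe31, where 18.6% were listed. At 200 bases or wider, 16.1% were listed in Phe21. The share near a start was 1.6% within 200 bases and 15.0% within 5000 bases. FOXA motifs were in 10.2% of promoter windows of 200 bases. The cause of these shifts was not tested. The share with the knockout higher stayed between 58.5% and 80.6% in Phe21 and between 11.5% and 22.5% in labelled Phe31, while in Phe11 it reached 50.0%. The other 6 set sizes ran from 30361 (no brain peak within 1000 bases) to 55823 (labelled Phe31 list not required) against 42683, all within 1.5 times. The 27 other shares stayed within their 95% counting interval, and medians of concentration within the SD over listed peaks.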

Other observations

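Among the other microRNA genes under a liver-only peak, the peak at Mir8093 was listed in every liver table, at 7.91 in wild type and 7.42 in the knockout of Phe11, 7.73 and 6.93 in Phe21, and 4.8 and 5.98 in labelled Phe31 (log2 concentration, the authors' means). The peak at Mir135a-1 was at 6.45 and 5.66 in Phe21. The peak at Mir6715 was at 6.88 and 7.46 in Phe21 and at 6.61 and 5.22 in labelled Phe31.

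The size of the difference moved with the level. With the listed liver-only peaks of each table divided by concentration into 4 classes, from the lowest class to the highest, the median absolute difference between knockout and wild type went from 1.11 to 0.59 in Phe11, from 1.18 to 0.5 in Phe21 and from 1.06 to 0.61 in labelled Phe31 on the log2 scale. Across chromosomes the share of liver-only peaks listed ran from 4.14% to 8.66% in Phe11, from 14.4% to 19% in Phe21 and from 15.3% to 20.3% in labelled Phe31.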
